A study of Mus musculus with 11 samples.

Results

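The plexin genes Plxna1, Plxna2, Plxna3, Plxna4, Plxnb1, Plxnb2, Plxnb3, Plxnc1 and Plxnd1 were followed in a count table of RNA fragments recovered with FMRP from 3 brain regions of mice at postnatal day 13. FMRP binds RNA in neurons, and its loss causes Fragile X syndrome. Members were chosen by symbol, and all 9 were among the 30986 rows of the table. Cerebellum (2 libraries) was set against cortex (3 libraries) and hippocampus (5 libraries), which are called forebrain where both are meant. No genotype, sex or treatment other than crosslinking is given by the labels for any of these groups. The tissue was irradiated with ultraviolet light of 254 nm in 3 doses of 400 mJ before FMRP was immunoprecipitated. A further library, whose title names cortex and whose tissue label names hippocampus, is kept apart as the library with conflicting labels. The labels tie no library to an animal, so a p-value here reflects how much these libraries varied, and that variation may be technical.

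Plexins are large receptors that cross the membrane once and bind semaphorins, a family of secreted and membrane-bound guidance proteins. Their cytoplasmic part holds a GTPase-activating domain for small GTPases of the Ras and Rap type, and class B plexins also recruit activators of RhoA. Class A plexins signal for secreted class 3 semaphorins together with neuropilins and bind class 6 semaphorins directly, class B plexins bind class 4 semaphorins, plexin C1 binds Sema7a and plexin D1 binds Sema3e. In the developing mouse cerebellum, Plxnb2 is known for its part in the proliferation and migration of granule cell precursors, and Plxna2 with its ligand Sema6a for the migration of granule cells.

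Library totals ran from 11898 to 197382 counts per sample once hippocampus 1 and 2 were summed. These 2 libraries did not differ detectably beyond what sampling gives (p = 0.191, chi-square test, 1.03 per degree of freedom) and were counted as 1 sample, hippocampus 1+2, which left 9 samples (2 cerebellum, 3 cortex, 4 hippocampus). Levels are given as CPM, counts per 1000000 counts of the library, and intervals are exact 95% Clopper-Pearson intervals that cover counting error only. Cortex 3, hippocampus 3 and hippocampus 4 stood apart, with 12.2 to 12.6% of counts on predicted genes (symbols of Gm and a number) against 3.1 to 7.49% in the other 6 samples. Granule cell markers summed to 5659 and 7113 CPM in cerebellum and to between 227.9 and 882.4 CPM in the 7 forebrain samples. Telencephalic excitatory neuron markers summed to 419.1 and 491.4 CPM in cerebellum and to between 672.4 and 3083 CPM in forebrain, with cortex 3 lowest. Most of the cerebellum sum was Slc17a7, with 324.7 ± 14.9 CPM in cerebellum (SD, n = 2) and 337.6 ± 268 CPM in forebrain (n = 7). Hippocampal neuron markers summed to between 390.6 and 699.1 CPM in cortex and to between 860.9 and 2647 CPM in hippocampus. That range also held the 1163 and 1059 CPM of cerebellum, where most of the sum was Zbtb20 (925.4 ± 69.2 CPM, SD, n = 2). Astrocyte markers summed to 1196 and 1393 CPM in cerebellum and 504.3 to 5248 CPM in forebrain. Most of the mean forebrain sum was Slc1a2, with 601 ± 83.4 CPM in cerebellum and 2905 ± 1475 CPM in forebrain. Gja1 and Fgfr3 also averaged lower in cerebellum, while Aqp4, Gfap, Slc1a3 and Aldh1l1 averaged higher there. Neither input RNA nor FMRP-deficient tissue was analysed here, so the amount of an RNA and its binding cannot be told apart, nor can fewer cells of a type and less RNA per cell.

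Plxnb2 was higher in cerebellum than in forebrain, and no other plexin passed the threshold in that comparison. Plxna4, Plxnc1 and Plxnb2 had levels in cerebellum that did not overlap those of forebrain, while Plxna1, Plxna2, Plxnb1, Plxna3, Plxnb3 and Plxnd1 overlapped. Between cortex and hippocampus no plexin passed, and Plxnd1 was the nearest. Plxnb2 lies on the minus strand of GRCm38 at chr15:89155549-89180788, Plxna4 on the minus strand at chr6:32144268-32588192 and Plxna2 on the plus strand at chr1:194618218-194816869. To show coding sequence of the genes that the results turn on, the stretch of 120 coding bases within a single exon that holds the most AGGA and TGGA, short sequences described for FMRP binding in a human cell line, is printed for these 3 genes, 5′ to 3′ in the sense of the mRNA with the matches in capitals. The stretches lie at chr15:89159882-89160001, chr6:32200820-32200939 and chr1:194796929-194797048, on the strand of the gene.
Plxnb2: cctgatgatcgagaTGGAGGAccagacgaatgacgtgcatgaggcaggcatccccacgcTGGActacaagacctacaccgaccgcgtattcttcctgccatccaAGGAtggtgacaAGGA
Plxna4: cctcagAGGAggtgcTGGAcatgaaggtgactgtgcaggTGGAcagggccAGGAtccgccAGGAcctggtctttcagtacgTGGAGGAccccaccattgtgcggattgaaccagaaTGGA
Plxna2: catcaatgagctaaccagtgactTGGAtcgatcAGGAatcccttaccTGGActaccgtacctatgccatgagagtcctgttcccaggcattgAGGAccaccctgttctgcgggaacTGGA

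The Plxnb2 stretch holds 5 matches, the Plxna4 stretch 8 and the Plxna2 stretch 5. Of the 1629 tested genes searched in the same way, 70.4% had a best stretch with at least 5 matches and 13.6% one with at least 8. Coding sequences of tested genes were also cut end to end into stretches of 120 bases, without regard to exon joins. Of those stretches 83.55% held at least 1 match. Over the whole coding sequence, the sense strand of Plxnb2 had 15.4 AGGA and TGGA per kb, that of Plxna4 15.8 and that of Plxna2 14.8, against a median of 16 over 1634 tested genes (quartiles 13.6 and 18.7). All 9 plexins lay between 13.5 and 15.8 per kb. For ACTG and ACTT, which were described in the same setting, the plexins ranged from 7.04 per kb in Plxna4 to 11.9 per kb in Plxnb3, against a median of 8.2. Plexin coding sequences are long, from 4.72 kb in Plxnc1 to 6.36 kb in Plxnb1, where the median of the tested genes was 2.96 kb. A match is a description of the letters and not a binding site, since the table gives no position for a fragment.

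Together the plexins gave 353 and 597 counts in cerebellum 1 and 2, 118, 110 and 28 counts in cortex 1 to 3, and 396, 148, 33 and 50 counts in hippocampus 1+2, 3, 4 and 5. The summed level was 3698 and 3025 CPM in cerebellum, 3841, 1972 and 2353 CPM in cortex, and 3039, 1261, 1504 and 2322 CPM in hippocampus. The ranges of the 3 regions overlapped, so the family as a whole did not set the regions apart. Every plexin had counts in both cerebellum samples, and 7 to 9 of the 9 were detected in each forebrain sample.

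Levels of different plexins were compared as CPM per kb of the longest annotated transcript. In cerebellum the highest was Plxnb2 with 110 ± 18.3 CPM per kb (SD, n = 2), followed by Plxna1 with 88.9 ± 23.5 and Plxna2 with 74.8 ± 16.3 CPM per kb. Plxna1 overlapped both Plxnb2 and Plxna2, while Plxnb2 lay above Plxna2, and each of the 3 lay above Plxnc1, which had 35.6 ± 2.34 CPM per kb. Plxnd1, Plxna4 and Plxnb1 followed with means of 19.9 to 20.7 CPM per kb, then Plxna3 with 17.4 ± 0.936 and Plxnb3 with 10.4 ± 0.342 CPM per kb. Plxnc1 did not overlap Plxnd1, nor Plxnb1 Plxna3, nor Plxna3 Plxnb3. The first place of Plxnb2 depends on the length used. In CPM the cerebellum means were 826.2 for Plxna2, 803.4 for Plxna1 and 712.2 for Plxnb2. Their longest transcripts are 11.04, 9.03 and 6.5 kb, while their coding sequences are 5.68, 5.68 and 5.53 kb. The table does not show which transcripts the fragments came from. In cortex the order was led by Plxna2 with 58.7 ± 7.51, Plxna1 with 58.6 ± 30.8, Plxnd1 with 57.8 ± 24.7 and Plxna4 with 44.5 ± 31.5 CPM per kb (SD, n = 3), while Plxnb2 had 18 ± 20.4. In hippocampus Plxna1 led with 52.7 ± 29.2 CPM per kb (SD, n = 4), before Plxna4 with 36.3 ± 11.9 and Plxna2 with 35.2 ± 17.2, and Plxnb2 had 25.1 ± 8.8 CPM per kb. In both forebrain regions every pair of neighbours in the order overlapped.

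**Figure D1:**
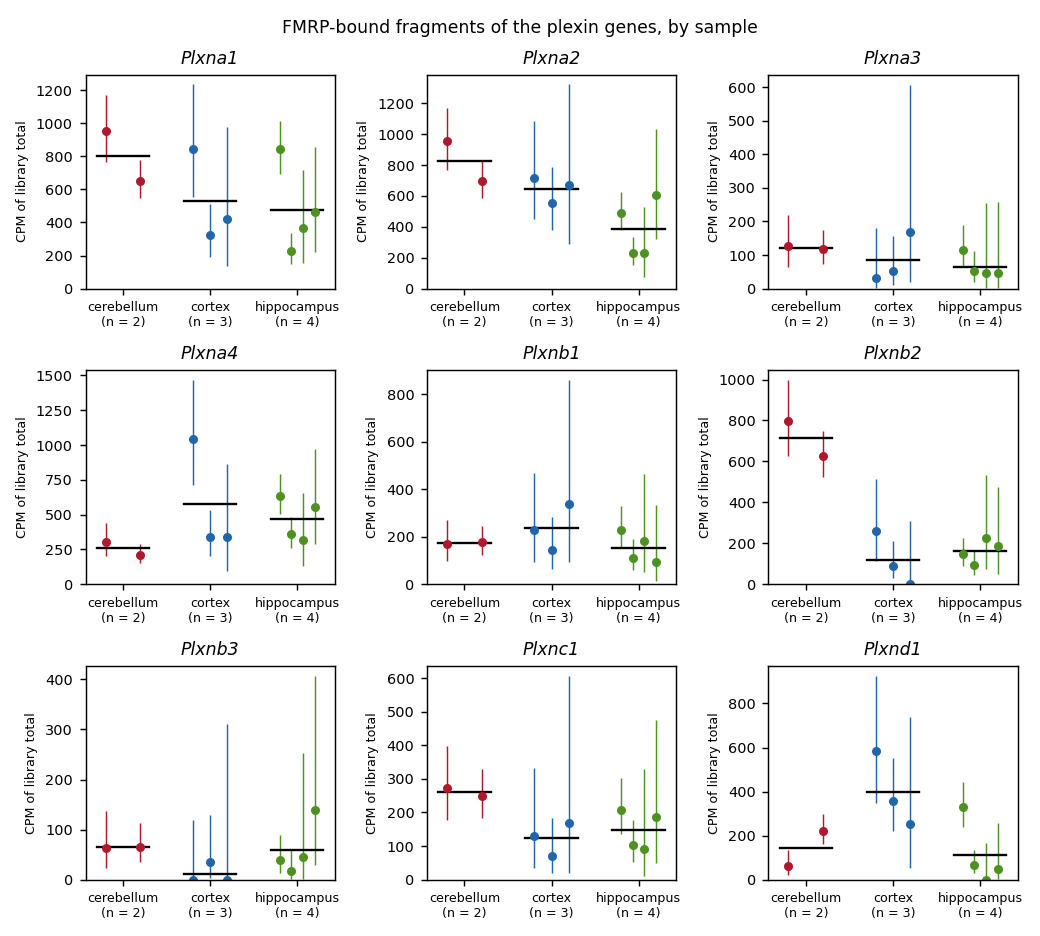
CPM of the library total for each plexin in cerebellum, cortex and hippocampus. Points are samples with 95% Clopper-Pearson intervals of counting error and black lines are region means. Plxnb2 stands at 796.2 and 628.2 CPM in cerebellum, above the highest forebrain sample at 260.4 CPM, and Plxna4 stands lower in cerebellum than in each forebrain sample.

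Plxnb2, the receptor for class 4 semaphorins with a role in cerebellar granule cell precursors, was first compared by sample. It had 796.2 CPM in cerebellum 1 (76 counts, interval 627.4 to 996.5 CPM) and 628.2 CPM in cerebellum 2 (124 counts, 522.6 to 749 CPM). In cortex it had 260.4, 89.6 and 0 CPM from 8, 5 and 0 counts, where the interval of the 0 in cortex 3 reached 310 CPM. In hippocampus it had 145.8, 93.8, 227.9 and 185.8 CPM from 19, 11, 5 and 4 counts in hippocampus 1+2, 3, 4 and 5. Both cerebellum samples were thus above all 7 forebrain samples, and Plxnb2 ranked 99 and 126 among all rows in cerebellum, against 445 or lower in the forebrain samples. Within hippocampus 1+2, the summed libraries had 17 and 2 counts.

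The log2 fold change of Plxnb2, cerebellum over forebrain, was 2.35 (SE 0.51, adjusted p = 0.000329, edgeR's quasi-likelihood test with Benjamini-Hochberg adjustment), with means of 712.2 ± 119 CPM in cerebellum (SD, n = 2) and 143.3 ± 90 CPM in forebrain (n = 7). It was 2.63 over cortex alone (SE 0.69, adjusted p = 0.00705, edgeR) and 2.07 over hippocampus alone (SE 0.52, adjusted p = 0.00299, edgeR). In the first comparison 1 of 7 tested plexins was called higher, against 3.9% of all 1720 tested genes, and 0 were called lower, against 3.78%. Over cortex alone and over hippocampus alone 1 of 7 was called higher as well, against 2.21% and 3.08% of tested genes, and 0 were called lower, against 2.38% and 3.31%. Besides both cerebellum samples, 3 forebrain samples reached the level of 179.3 CPM that the filter on low counts asked for in at least 2 samples, so Plxnb2 would have been tested without its cerebellum counts. The log2 CPM of Plxnb2 was also compared among samples that share a numeric code in their titles. Cerebellum minus forebrain was 2.04 for the samples coded as cerebellum 1 and 1.95 for those coded as cerebellum 2. These codes were also the block of the test. Of the forebrain samples, cortex 1, hippocampus 1+2 and hippocampus 3 share a code with a cerebellum sample. Only those were set directly against cerebellum in the fit, and from cortex only cortex 1 was. The other forebrain samples entered through the difference between cortex and hippocampus and the estimate of variation. The n of 7 thus belongs to the means.

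The call against forebrain rested on both cerebellum samples. Without cerebellum 1 the log2 fold change was 2.59 (adjusted p = 0.377, edgeR) and without cerebellum 2 it was 2.32 (adjusted p = 0.0862, edgeR), in fits where the lone cerebellum sample is assumed to vary like the other groups. The call was also lost when low counts were not filtered (2.67, adjusted p = 1, edgeR) and with only the libraries whose titles start with the letter s (2.22, adjusted p = 0.0557, edgeR). Without the 3 samples rich in predicted genes it was 2.28 and stayed past the threshold (adjusted p = 1.09e-05, edgeR), which under the block rests on cerebellum 1 alone, and with no block it was 2.36 (adjusted p = 0.00117, edgeR). The fold change was positive in all 23 alternatives, from 1.99 to 3.22. Against cortex alone the call was lost without any of cerebellum 1, cerebellum 2, cortex 1 (where the value was 4.05), cortex 2, hippocampus 4 or hippocampus 5 (adjusted p from 0.0828 to 0.572, edgeR). Against hippocampus alone it was lost without cerebellum 1, cerebellum 2 or hippocampus 1+2 (adjusted p from 0.353 to 0.447, edgeR).

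Marker lists of cerebellar neurons were also higher in cerebellum when summed. All 9 granule cell markers had counts in cerebellum, with a sum of 6386 ± 1028 CPM (SD, n = 2), whereas forebrain had 541 ± 223 CPM (SD, n = 7), and Gabra6, Pax6 and Zic2 were at 0 in cortex. The 8 Purkinje cell markers summed to 3348 ± 245 CPM in cerebellum and 879.5 ± 230 CPM in forebrain, with Pcp2 at 0 in cortex. Most of that sum was Itpr1, with 2708 ± 111 CPM in cerebellum and 574.5 ± 289 CPM in forebrain, the 1 of 3 tested Purkinje cell markers that was called, and Ppp1r17 averaged 20.4 CPM in cerebellum and 28.9 CPM in forebrain. The part of these cell types' markers in the Plxnb2 difference was not tested. The 8 microglia markers summed to 73.3 and 101.3 CPM in cerebellum and to between 32.6 and 136.7 CPM in forebrain. Trem2 was at 0 in cerebellum, and Aif1, C1qa and Trem2 were at 0 in cortex.

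Since the shares of the plexins within a sample do not depend on the library total, the make-up of the family was described as well. Plxnb2 took 21.5 and 20.8% of plexin counts in cerebellum, 6.78, 4.55 and 0% in cortex, and 4.8, 7.43, 15.2 and 8% in hippocampus. Both cerebellum shares were above each forebrain share, of which the highest, in hippocampus 4, came from 5 counts. Plxna4 took the opposite place, with 8.21 and 7.04% in cerebellum, 27.1, 17.3 and 14.3% in cortex and 21, 28.4, 21.2 and 24% in hippocampus. Class A plexins together held 63.2 and 55.6% in cerebellum and 63.6 to 72% in forebrain. Class B plexins held 27.8 and 28.8% in cerebellum and 12.7 to 18% in forebrain except hippocampus 4, which had 30.3% from 10 counts. These sums include Plxnb2. Plxnb1 held 4.53 and 5.86% in cerebellum and 4 to 14.3% in forebrain, and Plxnb3 1.7 and 2.18% in cerebellum and 0 to 6% in forebrain. Shares are tied to each other, so a larger share of Plxnb2 leaves less for the others.

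**Figure D2:**
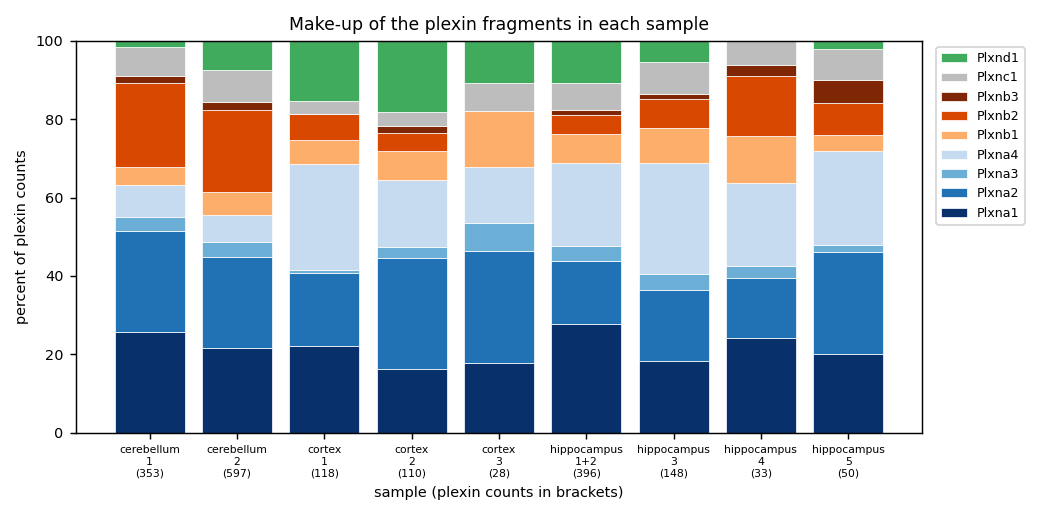
Percent of the plexin counts of each sample that fall on each plexin, with the number of plexin counts in brackets. Plxnb2 holds 21.5 and 20.8% in the cerebellum samples and at most 15.2% in forebrain, and Plxna4 holds 8.21 and 7.04% in cerebellum and at least 14.3% in forebrain.

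Of the class A plexins, Plxna4, a receptor with neuropilins for Sema3a and by itself for class 6 semaphorins, had 303.8 and 212.8 CPM in cerebellum. It had 1042, 340.6 and 336.2 CPM in cortex (32, 19 and 4 counts) and 637, 358, 319 and 557.3 CPM in hippocampus (83, 42, 7 and 12 counts). In CPM of library totals, both cerebellum samples were below all 7 forebrain samples. The nearest gap was small, 303.8 CPM in cerebellum 1 against 319 CPM in hippocampus 4. The scaling factors of the test (TMM) were 0.9998 for cerebellum 1 and 1.246 for cortex 2. Dividing by them places cortex 2 below cerebellum 1, so the ranges overlap after that scaling. The log2 fold change of Plxna4, cerebellum over forebrain, was -1.26 (SE 0.48, adjusted p = 0.0908, edgeR), which did not pass the threshold. Among samples with the title code of cerebellum 1 the difference was -1.17, and with that of cerebellum 2 it was -1.26. Over all alternatives the value ran from -1.47 to -0.87, and 5 of 23 called it: 10 separate libraries (adjusted p = 0.0335, edgeR), the stricter filter (0.0173), the library with conflicting labels as cortex or as hippocampus (0.0402 each) and the omission of the 3 samples rich in predicted genes (0.0376), which under the block rests on cerebellum 1 alone. With no block, the conflicting library as cortex or as hippocampus and the omission of the 3 samples gave no call (adjusted p = 0.174, 0.2 and 0.114, edgeR). The fit of 10 separate libraries counts hippocampus 1 and 2 as separate samples, although they did not differ detectably beyond sampling. Without strand, reads of Plxna4 and of its antisense gene Plxna4os1 cannot be told apart, and the Plxna4os1 row held 10 counts over all libraries.

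Plxna1, on chr6:89316314-89362620, a signalling partner of neuropilins for secreted semaphorins, had 953.3 and 653.6 CPM in cerebellum. Its levels were 846.3, 322.7 and 420.2 CPM in cortex and 844.2, 230.1, 364.6 and 464.4 CPM in hippocampus. The regions overlapped, and the log2 fold change of cerebellum over forebrain was 0.63 (SE 0.47, adjusted p = 0.58, edgeR). Cortex 1 and hippocampus 1+2, of the same title code as cerebellum 1, were its highest forebrain samples.

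Plxna2, known with Sema6a from granule cell migration, had 953.3 and 699.2 CPM in cerebellum. In cortex it stood at 716.1, 555.7 and 672.4 CPM, and in hippocampus at 491.2, 230.1, 227.9 and 603.8 CPM. In CPM of library totals, cerebellum was above all hippocampus samples and overlapped cortex. The TMM factors were 0.9825 for cerebellum 2, 1.262 for cortex 1 and 0.9738 for cortex 3. Dividing by the factors places cortex 1 below cerebellum 2, so cerebellum lies above all forebrain samples after that scaling. Over forebrain the log2 fold change was 0.84 (SE 0.46, adjusted p = 0.343, edgeR), with 0.83 and 0.94 within the title codes of cerebellum 1 and 2. Plxna3, on chrX:74329066-74344689, which also signals with neuropilins, did not pass the filter on low counts and has no test. It had 125.7 and 116.5 CPM in cerebellum (12 and 23 counts), 32.6, 53.8 and 168.1 CPM in cortex (1, 3 and 2 counts) and 115.1, 51.1, 45.6 and 46.4 CPM in hippocampus (15, 6, 1 and 1 counts).

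Among the other class B plexins, Plxnb1, on chr9:109095389-109119917, the receptor for Sema4d, had 167.6 and 177.3 CPM in cerebellum, between the 92.9 and 336.2 CPM that bound the forebrain samples. Its log2 fold change of cerebellum over forebrain was -0.15 (SE 0.57, adjusted p = 0.963, edgeR). Plxnb3, on chrX:73757090-73772514, known from oligodendrocytes and as a receptor of Sema5a, had the lowest level per kb in cerebellum and in cortex, and did not pass the filter. It had 62.9 and 65.9 CPM in cerebellum (6 and 13 counts), 0, 35.9 and 0 CPM in cortex (0, 2 and 0 counts) and 38.4, 17 and 45.6 CPM in hippocampus 1+2, 3 and 4 (5, 2 and 1 counts), with 139.3 CPM from 3 counts in hippocampus 5. The interval of the 0 in cortex 1 reached 120.1 CPM and that in cortex 3 reached 310 CPM, so a regional difference of Plxnb3 was not detectable at this depth. The 12 oligodendrocyte lineage markers summed to 942.9 and 1317 CPM in cerebellum and to between 252.1 and 1004 CPM in forebrain. Mog, Sox10 and Opalin were at 0 in cortex, and Opalin was at 0 in cerebellum too. The part of these markers in the Plxnb3 levels was not tested.

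Plxnc1, on chr10:94790866-94944835, the receptor of Sema7a, had 272.4 and 248.2 CPM in cerebellum. It had 130.2, 71.7 and 168.1 CPM in cortex (4, 4 and 2 counts) and 207.2, 102.3, 91.1 and 185.8 CPM in hippocampus (27, 12, 2 and 4 counts). Both cerebellum samples were thus above all forebrain samples. Intervals of counting error reached above both cerebellum values in cortex 1 and 3 and hippocampus 1+2, 4 and 5, up to 607.1 CPM in cortex 3. They ended below both in cortex 2 (183.6 CPM) and hippocampus 3 (178.7 CPM). The log2 fold change of cerebellum over forebrain was 0.96 (SE 0.57, adjusted p = 0.41, edgeR), and 0.79 and 0.59 within the title codes of cerebellum 1 and 2. Of the 7 tested plexins, 2 thus lay in cerebellum above all forebrain samples and 1 below, against 9.3% and 4.3% of tested genes. Positions here are in CPM of library totals, for the plexins and for all tested genes. Against cortex alone 2 of the 7 lay above (Plxnb2 and Plxnc1) and 2 below (Plxna4 and Plxnd1), with 13.9% and 15.1% of tested genes doing so. Against hippocampus alone 3 of the 7 lay above (Plxna2, Plxnb2 and Plxnc1) and 1 below (Plxna4), with 15.9% and 8.26% of tested genes doing so.

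Plxnd1, on chr6:115954811-115995005, the receptor of Sema3e in vessels and in some neurons, varied widely within cerebellum and within hippocampus. It had 62.9 and 222.9 CPM in cerebellum (6 and 44 counts), 585.9, 358.5 and 252.1 CPM in cortex (18, 20 and 3 counts), and 330, 68.2, 0 and 46.4 CPM in hippocampus (43, 8, 0 and 1 counts). Each cortex sample was above each cerebellum sample, and hippocampus 1+2 lay within the range of cortex while the other hippocampus samples lay below it. Over forebrain the log2 fold change of cerebellum was -1.27 (SE 0.61, adjusted p = 0.24, edgeR), and over cortex alone -2.1 (SE 0.75, adjusted p = 0.0801, edgeR). The title codes differed in direction, with -2.21 among samples coded as cerebellum 1 and 0.93 between cerebellum 2 and hippocampus 3, the one forebrain sample with its code. Without hippocampus 3 the value over forebrain was -2.64 (adjusted p = 0.0236, edgeR) and without the 3 samples rich in predicted genes it was -2.66 (adjusted p = 0.000935, edgeR), in both cases from cerebellum 1 alone under the block. Without cerebellum 1 it was 0.52 (adjusted p = 0.962, edgeR), and without the block -0.63 (adjusted p = 0.598, edgeR). Over cortex alone it was called with 10 separate libraries, where hippocampus 1 and 2 count as separate samples (-2.01, adjusted p = 0.0434, edgeR). It was also called over cortex without hippocampus 1+2 (-2.78, adjusted p = 0.0394, edgeR) and without hippocampus 3 (-3.31, 0.00868). Without the 3 samples rich in predicted genes it was called over cortex (-3.14, adjusted p = 0.000603, edgeR) and over hippocampus (-2.18, 0.0199), again from cerebellum 1 alone under the block. The 8 endothelial markers, for a cell type that uses Plxnd1, summed to 136.2 and 177.3 CPM in cerebellum, 65.1 to 252.1 CPM in cortex and 107.4 to 232.2 CPM in hippocampus, with Cldn5, Slco1c1 and Ly6c1 at 0 in cortex and Pecam1 at 0 in hippocampus. Those sums overlapped between the regions.

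**Figure D3:**
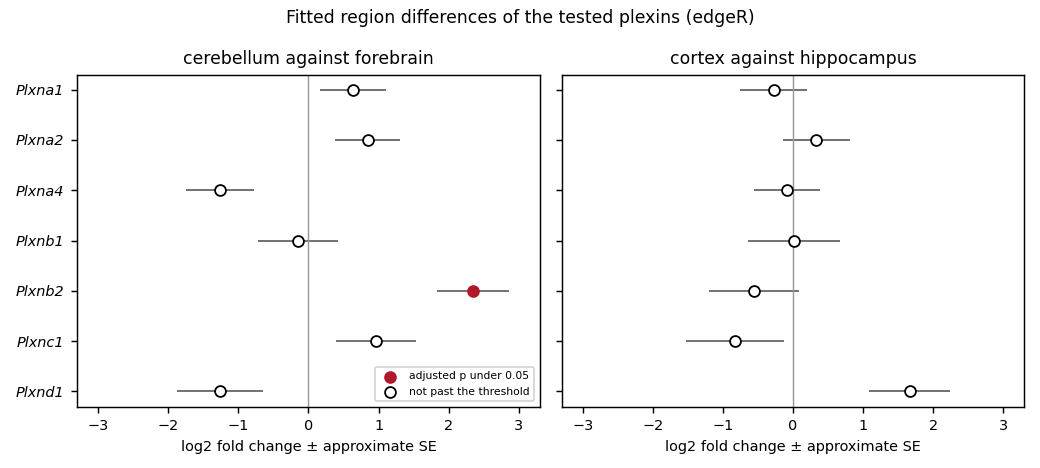
Log2 fold changes with approximate SE of the 7 tested plexins, for cerebellum over forebrain on the left and cortex over hippocampus on the right. Plxnb2 at 2.35 is the filled point past the threshold, and Plxnd1 at 1.66 is the farthest from 0 between cortex and hippocampus without passing it.

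Cortex and hippocampus were compared in the same fit. Of the 7 tested plexins 0 passed in edgeR, against 0% of all tested genes, while 1 plexin had an unadjusted p under 0.05 (3.95% of tested genes did). DESeq2 likewise called 0 plexins. Plxnd1 had the widest gap, with a log2 fold change of 1.66 in cortex over hippocampus (SE 0.58, adjusted p = 0.694, edgeR), with cortex at 398.9 ± 171 CPM (SD, n = 3) and hippocampus at 111.2 ± 149 CPM (SD, n = 4). It was 0.48 in the title code of cortex 1 and 2.86 in that of cortex 2 and 3, and without cortex 1 or without hippocampus 1+2 it was 3.65 (adjusted p = 1 and 0.0951, edgeR). Plxnc1 had -0.83 (SE 0.7), Plxnb2 -0.56 (SE 0.64), Plxna2 0.33 (SE 0.47) and Plxna1 -0.28 (SE 0.48). Plxna4 and Plxnb1 stood at -0.09 (SE 0.47) and 0.01 (SE 0.65), with signs that changed between alternatives. In 0 of the 7 tested plexins was every cortex sample above or below every hippocampus sample, against 2.44% of tested genes above and 1.45% below.

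The ligands, semaphorins, were followed as a list of 20, all in the table, of which 6 passed the filter. In cerebellum over forebrain 1 of the 6 was called higher, against 3.9% of tested genes, and 0 lower, against 3.78%. Sema4g was among the 6 only through its cerebellum counts. In forebrain cortex 1 alone, with 195.3 CPM, reached the filter's level of 179.3 CPM. The called gene was Sema6a, the membrane-bound ligand of Plxna2 and Plxna4. It had 513.3 and 476.2 CPM in cerebellum, 65.1, 161.3 and 0 CPM in cortex, and 122.8, 119.3, 227.9 and 232.2 CPM in hippocampus, so that both cerebellum samples were above the highest forebrain sample. Its log2 fold change was 2.35 (SE 0.56, adjusted p = 0.00132, edgeR). The call was lost without cerebellum 1 (2.11, adjusted p = 0.586, edgeR), cerebellum 2 (2.68, 0.0529) or cortex 1 (2.34, 0.176), and when low counts were not filtered (2.66, adjusted p = 1). Sema6d, a class 6 ligand, averaged 340.7 ± 66.3 CPM in cerebellum (SD, n = 2) and 186 ± 125 CPM in forebrain (n = 7). Sema5a, the ligand of Plxnb3, averaged 302.4 ± 90.9 CPM in cerebellum and 266.5 ± 143 CPM in forebrain, and Sema4g, a class 4 member, 222.1 ± 56.2 CPM in cerebellum and 96.3 ± 75.5 CPM in forebrain. The log2 fold changes of Sema6d, Sema5a and Sema4g, 0.78, 0.58 and 0.79, did not pass. Between cortex and hippocampus 0 of 6 semaphorins passed in edgeR, where 0% of all tested genes did.

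Of 9 coreceptors and partners in the list, 2 passed the filter. Between cerebellum and forebrain 0 of them were called in either direction, against 3.9% of tested genes called higher and 3.78% lower. Nrcam, a cell adhesion protein that joins neuropilin complexes, averaged 274 ± 86.6 CPM in cerebellum (SD, n = 2) and 267.9 ± 88.3 CPM in forebrain (n = 7), and its relative Chl1 201.2 ± 26.6 CPM in cerebellum and 154.2 ± 75.3 CPM in forebrain. L1cam, which binds Nrp1, averaged 113.2 ± 11.9 CPM in cerebellum and 132.7 ± 60 CPM in forebrain, and the receptor kinase gene Met, a partner of class B plexins, 25.7 ± 6.68 CPM in cerebellum and 98.5 ± 86.3 CPM in forebrain, both without a test. Of 30 effectors, 13 passed the filter and 0 were called in edgeR, where 3.9% of tested genes were called higher and 3.78% lower (median log2 fold change of the 13 -0.17). Arhgap35, a GTPase-activating protein for RhoA, averaged 761 ± 109 CPM in cerebellum and 604.5 ± 391 CPM in forebrain, and Arhgef12, the RhoA activator that class B plexins recruit, 517.6 ± 6.01 CPM in cerebellum and 498.8 ± 209 CPM in forebrain. Dpysl2, the collapsin response mediator that carries Sema3a signals, had 231.6 ± 16.4 CPM in cerebellum and 366.9 ± 219 CPM in forebrain, and Gsk3b, a kinase that phosphorylates it, 169.8 ± 17.9 CPM in cerebellum and 384.4 ± 224 CPM in forebrain (log2 fold change -1, SE 0.53, adjusted p = 0.314, edgeR). Between cortex and hippocampus 0 of the tested coreceptors and effectors passed, where 0% of all tested genes did.

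**Figure D4:**
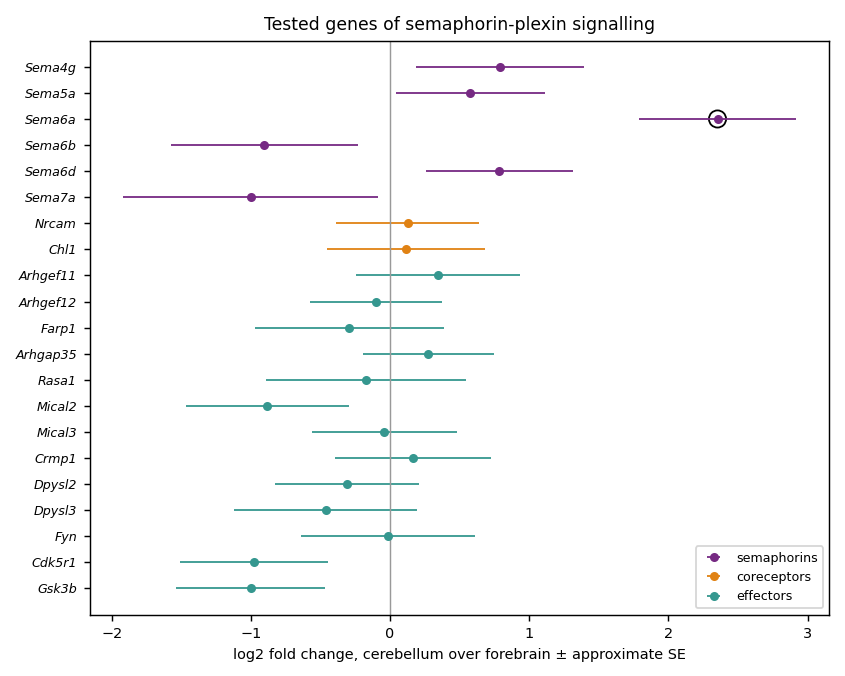
Log2 fold changes, cerebellum over forebrain, with approximate SE for the 21 tested genes of the semaphorin, coreceptor and effector lists. The ringed point, Sema6a at 2.35, is the gene past the threshold.

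The rows most like 2 of the plexins over the 9 samples were found by Pearson's r of log2 CPM among 1719 other tested rows. For Plxnb2 they were Frrs1l (r = 0.99), Ptprj (r = 0.975) and Zfp521 (r = 0.957), with means of 853.1, 768 and 625.1 CPM in cerebellum and 192.5, 285.5 and 93.7 CPM in forebrain. For Plxna2, the tested plexin with the highest mean CPM over the samples, they included Zfp644 (r = 0.932) and Cacna1g (r = 0.888). These values describe 9 samples that share libraries and depth and are the highest of many.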

How the data were processed

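Fragments bound by FMRP after ultraviolet crosslinking were measured in 11 libraries from mouse cerebellum, cortex and hippocampus. The authors deposited whole-number counts of fragments per gene symbol, not normalized. Bowtie 0.12.7, Picard and the build mm10 are named in the submitters' processing notes, while no source used here gives the counting tool, annotation or use of strand. CPM was computed from library totals, which ran from 11898 to 197382 counts per sample, so that 3 counts correspond to between 15.2 and 252.1 CPM. Intervals cover counting error only.

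Hippocampus 1 and 2 were summed (chi-square per degree of freedom 1.03, where the other 13 pairs of a region gave 1.51 to 22.1). The library with conflicting labels entered alternatives only. The main test was edgeR 4.0.16's quasi-likelihood test (R 4.3.3) with TMM factors, a filter by region (10 counts at the median library size, 179.3 CPM, in at least 2 samples) and the numeric title code as a block. It tested 1720 rows, with Benjamini-Hochberg adjusted p under 0.05 as the threshold, and was tested on simulated data. SE was taken as the log2 fold change over the square root of F and is approximate. Samples that share a title code, whose meaning the labels do not give, had a median correlation of deviations from region means of 0.133 over 8 pairs (-0.067 to 0.484), against -0.05 over 18 pairs of different codes (-0.283 to 0.101).

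Alternatives were no block, 10 separate libraries, library totals alone, DESeq2 1.42.0, no filter and a stricter filter, each sample left out, the library with conflicting labels as cortex or hippocampus, libraries whose titles start with the letter s, and omission of the 3 samples richest in predicted genes. The last with no block, and the conflicting library or the loss of hippocampus 3 with no block, were examined as well, 3 of them added after seeing the data. Genes named are the 9 plexins, the called genes and the 4 highest by mean CPM of each pathway list, and the 3 rows most like the plexin of highest mean CPM and each called plexin, of which 1 is not reported here. Transcript lengths and sequences come from GENCODE M21 on GRCm38, which is mm10. Members and lists were chosen with earlier results of these data known.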

Additional observations from a re-analysis of the deposited data

Results flagged for a closer look

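Plxna3 had 115.1 CPM in hippocampus 1+2, set apart from 51.1, 45.6 and 46.4 CPM in hippocampus 3, 4 and 5. Its gap to the nearest of the others was a larger part of the range than Dixon's 95% critical value allows, which chance alone gives in a small share of groups, and hippocampus 4 and 5 had 1 count each.

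The library with conflicting labels is in none of the main comparisons, only in alternatives to them, and held plexin counts above its floor of 98.9 CPM, which 3 counts give. In it Plxna1 had 362.5 CPM (11 counts), Plxna4 362.5 CPM (11 counts), Plxnb1 296.6 CPM (9 counts), Plxnd1 296.6 CPM (9 counts), Plxna3 197.7 CPM (6 counts) and Plxnc1 164.8 CPM (5 counts). Plxnb2, with 65.9 CPM from 2 counts, and Plxna2, with 33 CPM from 1 count, were below that floor.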

How the results depend on the processing

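Of 7 tested plexins, 1 was called in cerebellum over forebrain, and it was higher, against 3.9% of all tested genes called higher. The number of plexins tested changed between alternatives, from 5 with the stricter filter to 8 with s titles and 9 with no filter. The count was 2 with 10 separate libraries, with the stricter filter and with the library of conflicting labels as cortex or as hippocampus (Plxna4 and Plxnb2 each time), 3 without the 3 samples richest in predicted genes (with Plxnd1), and 0 with no filter or with only libraries whose titles start with s. Leaving out 1 sample gave 0 to 2. Over cortex the count of 1 became 2 with 10 separate libraries and without the 3 samples, also with no block, and 0 with library totals, no filter or s titles (0 to 2 with 1 sample left out). Over hippocampus it became 2 with 10 separate libraries, the stricter filter, the conflicting library as either region and without the 3 samples, and 0 with library totals or no filter (0 to 1 with 1 sample left out). Without the replicate block no plexin call changed, and Plxnb2 was 2.40 over forebrain (adjusted p = 0.00056, edgeR), 2.69 over cortex and 2.12 over hippocampus.

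Over all genes, 132 calls between cerebellum and forebrain became 54 with library totals (37 higher, 17 lower), 87 with DESeq2, 1 with no filter, 85 with s titles, 215 without the 3 samples (131 higher, 84 lower), 253 without them and the block, and 2 to 176 with 1 sample left out (81 without hippocampus 1+2). Between cortex and hippocampus 0 became 1 with 10 separate libraries, DESeq2, the stricter filter, the conflicting library as cortex (also with no block) or as hippocampus, 3 without the 3 samples, and 0 to 1 with 1 sample left out. Library totals moved the median of all genes to 0.12 (main 0.002) and, between cortex and hippocampus, to 0.24 (main -0.04). The rows tested differed between settings, so the calls are not out of equal numbers. They were 1720 in the main fit, with library totals and with DESeq2, and 30818 with no filter. With s titles they were 4112, without the 3 samples 1989 and without hippocampus 1+2 they were 1140. The cause was not tested for any of the changed counts and medians.

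Signs that turned were all of uncalled values. In cortex over hippocampus, Plxna1 was 0.02 with library totals, Plxna2 -0.02 with the conflicting library as cortex and no block, and Plxna4 0.16 with library totals, 0.03 with no filter, 0.43 with s titles and 0.08 without the 3 samples. Plxnb1 was -0.07 with no replicate block, -0.08 with 10 libraries, -0.04 with the conflicting library as either region and without the 3 samples, -0.12 with s titles, -0.35 without the 3 samples and the block, and -0.28 with the conflicting library as hippocampus and no block. Plxnb2 was 0.56 with s titles and 0.07 without the 3 samples. In cerebellum over forebrain, Plxnb1 was 0.19 with no filter and 0.08 with s titles and without the 3 samples and the block. Arhgef12 was 0.07 with no replicate block, 0.02 with library totals, 0.25 with no filter, 0.13 with s titles, 0.00 with the conflicting library as hippocampus and 0.01 without hippocampus 3, both with no block, and Dpysl2 was 0.05 with no filter. In cerebellum over hippocampus, Plxnd1 was 0.02 with no filter. With 1 sample left out, Plxna4 in cortex over hippocampus ran from -0.44 to 0.11 and Plxnb1 from -0.22 to 0.37. In cerebellum over forebrain, Plxnb1 ran from -0.28 to 0.24, Plxnd1 from -2.64 to 0.52, Arhgef12 from -0.28 to 0.35, Chl1 from -0.68 to 0.74, Dpysl2 from -0.54 to 0.06 and Nrcam from -0.18 to 0.48 (-0.17 without hippocampus 1+2). Plxnd1 over hippocampus ran from -1.98 to 1.24 (0.87 without hippocampus 1+2).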
